A study of Mus musculus with 27 samples.

Results

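The 39 Hox cluster genes of the mouse were described across 27 RNA sequencing libraries of thyroid origin. They are the rows, out of 33924 gene symbols in the count table, whose symbol reads Hoxa, Hoxb, Hoxc or Hoxd followed by a number. The set holds 11 genes of the Hoxa cluster on chromosome 6, 10 of the Hoxb cluster on chromosome 11, 9 of the Hoxc cluster on chromosome 15 and 9 of the Hoxd cluster on chromosome 2, and its genes fall into 13 numbered paralog groups. The rule reads symbols alone, although the set was picked for description with earlier results of these data known.

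Hox genes encode homeodomain transcription factors that give embryonic cells their place along the head to tail axis. Genes with low numbers are used toward the head and genes with high numbers toward the tail, in the order in which they lie along each cluster, and genes of the same number in different clusters are paralogs. Their proteins bind DNA together with Pbx, Meis and Prep (Pknox) cofactors. MLL and other Trithorax proteins keep the clusters active and Polycomb proteins keep them silent. The SWI/SNF remodeling complex belongs to the Trithorax side of that balance. The thyroid arises from pharyngeal endoderm, and Hoxa3 is needed for normal development of the thyroid and its neighbouring glands.

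The libraries form 9 groups of 3. All 12 tumor lines carried Braf(V600E), a constantly active form of the Braf kinase, and 9 of them were also knocked out (KO) for a SWI/SNF subunit gene, which was Arid1a, Arid2 or Smarcb1. Each line was sequenced after vehicle and after 8 days of 300 nM CH5126766 (CKI), which inhibits RAF and MEK. The lines were grown out of dissected tumors and kept in culture. By the treatment text CKI was given together with bovine TSH. The labels do not make clear whether the vehicle arm received TSH as well, and if it did not, CKI and TSH cannot be told apart. The remaining group is labelled wildtype and untreated, although its source is given as a tumor cell line. The sources used here do not give the promoter or Cre driver behind the alleles, nor whether the lines of a genotype came from separate mice. The p-values therefore measure the spread between these lines, with a single estimate shared by all groups in a fit. In fits that hold both treatments without the cell line as a block, the vehicle and CKI libraries of a line count as independent. In such fits the p-values of comparisons between genotypes can be too small.

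Promoter windows of 4 genes are printed because Hoxa2 and Hoxa3 were lower in Smarcb1 KO lines, Hoxc4 was high in some lines and near 0 in others of the same genotype, and Hoxd8 stands for the Hoxd cluster. Each window runs from 250 bases before to 50 after a start in RefSeq on GRCm38.p6, is printed on the strand of the gene and has CG dinucleotides in capitals. The count table was made on mm9, so these coordinates do not apply to it. The windows lie at chr6:52164782-52165081 on the minus strand, chr6:52213018-52213317 on the minus strand, chr15:103034145-103034444 on the plus strand and chr2:74704365-74704664 on the plus strand.
Hoxa2: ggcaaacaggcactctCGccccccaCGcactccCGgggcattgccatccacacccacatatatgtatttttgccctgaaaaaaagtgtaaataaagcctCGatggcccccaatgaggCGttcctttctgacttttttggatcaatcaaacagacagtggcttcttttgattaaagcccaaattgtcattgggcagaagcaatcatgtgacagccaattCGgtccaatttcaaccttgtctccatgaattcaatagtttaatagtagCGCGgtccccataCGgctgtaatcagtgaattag
Hoxa3: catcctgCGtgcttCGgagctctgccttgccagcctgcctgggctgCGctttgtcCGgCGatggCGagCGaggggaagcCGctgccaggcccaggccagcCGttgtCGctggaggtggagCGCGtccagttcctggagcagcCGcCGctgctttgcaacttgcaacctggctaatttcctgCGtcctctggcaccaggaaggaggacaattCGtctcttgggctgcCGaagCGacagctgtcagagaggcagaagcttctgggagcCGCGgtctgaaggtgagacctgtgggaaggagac
Hoxc4: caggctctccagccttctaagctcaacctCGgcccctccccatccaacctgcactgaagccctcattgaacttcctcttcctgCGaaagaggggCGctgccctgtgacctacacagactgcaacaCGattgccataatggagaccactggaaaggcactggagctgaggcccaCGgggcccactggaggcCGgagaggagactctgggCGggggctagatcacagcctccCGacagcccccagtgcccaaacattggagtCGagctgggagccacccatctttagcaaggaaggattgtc
Hoxd8: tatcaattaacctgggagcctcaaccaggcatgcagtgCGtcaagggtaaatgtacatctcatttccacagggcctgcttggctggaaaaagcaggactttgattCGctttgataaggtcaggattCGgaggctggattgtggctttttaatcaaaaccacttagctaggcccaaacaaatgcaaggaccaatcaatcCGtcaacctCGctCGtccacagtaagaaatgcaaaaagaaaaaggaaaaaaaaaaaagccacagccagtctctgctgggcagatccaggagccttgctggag
The Hoxa2 window held 9 CG, that of Hoxa3 20, that of Hoxc4 9 and that of Hoxd8 6, against a median of 7 over all 32851 promoter windows of 300 bases. Windows were found for 22 of the 39 genes, 24 windows in all, with a median of 14.5 CG and a range from 4 to 45. The letters TGATNNAT, a site type bound by Hox and Pbx proteins together, were searched on both strands. Hoxa2 had 1 match, written ATCAATCA on the strand printed, and Hoxa3, Hoxc4 and Hoxd8 had 0. Over the 24 windows 4 held a match, and over all promoters 8.85% did.

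Depth and identity of the libraries were as follows. Libraries held between 18417255 and 27257703 counts each, except for 2 Smarcb1 KO lines under CKI, BS53958 (11684983) and BS53965 (2884130). Levels are given as CPM, the usual depth-normalised read count of a gene, with library sizes adjusted by TMM, the trimmed mean of M values. In vehicle, Smarcb1 was at 0.461 ± 0.61 CPM in Smarcb1 KO lines against 74.9 ± 9.1 in Braf lines, Arid1a was at 80.5 ± 14 in Arid1a KO lines against 132 ± 3.9, and Arid2 was at 94.0 ± 14 in Arid2 KO lines against 97.6 ± 10 (SD, n = 3 lines each). Counts over a whole gene still include reads from exons outside a deletion, so a level near that of Braf lines does not test the label. The summed level of 8 thyroid follicular markers was 229416 to 348168 CPM in the wildtype libraries and 33.1 to 983 CPM in the tumor lines.

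Hox RNA was detected in every library, in a different set of genes from line to line. Between 9 and 23 of the 39 genes reached 1 CPM in a library. The 5 genes that reached it in all 27 libraries were all of the Hoxb cluster (Hoxb3 to Hoxb7). At the other end, 11 genes reached 1 CPM in none, 6 of them in the Hoxd cluster. Hoxc12 and Hoxd12, of a paralog group used at the tail end of the axis, had 0 counts throughout, which allows up to 3 counts per group or 0.0392 to 0.0752 CPM. Of the 39 genes, 27 passed the filter on low counts in both fits: 9 Hoxa, 9 Hoxb, 6 Hoxc and 3 Hoxd. The other 12 could not be tested, and a gene that passed only through a group where it was high had to differ.

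**Figure D1:**
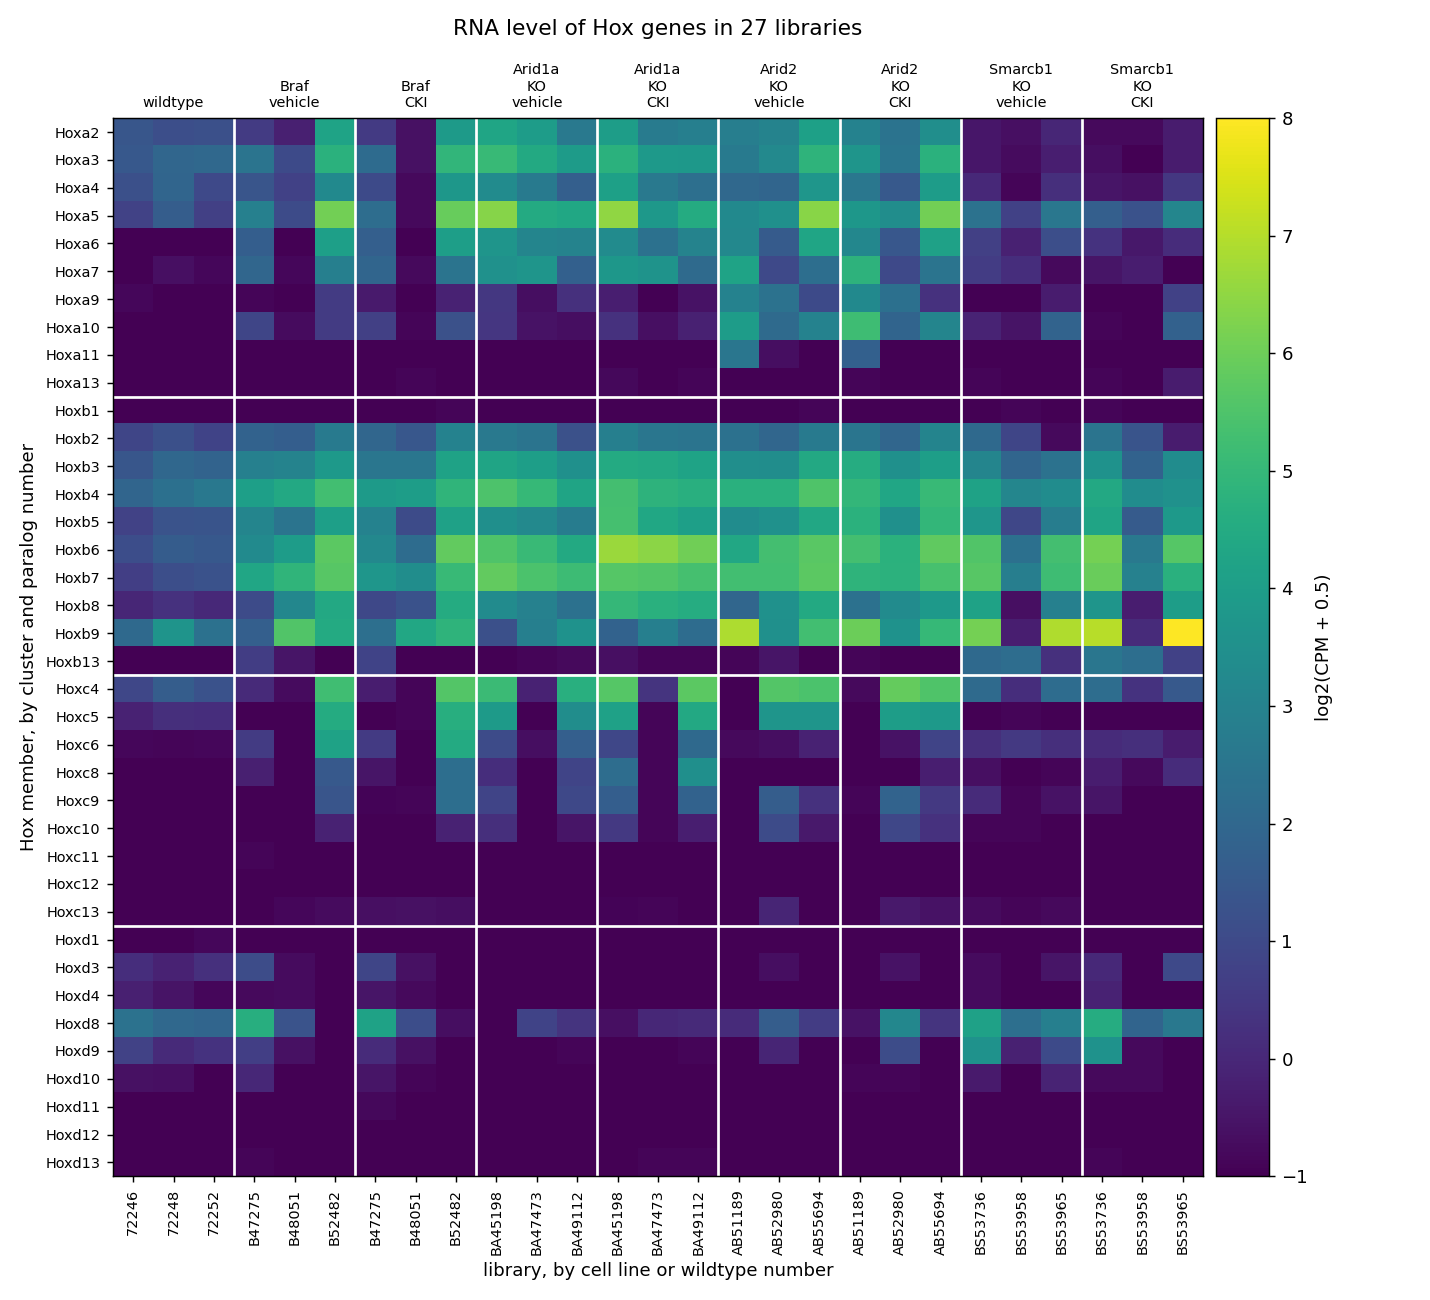
Level of Hox genes (rows, by cluster and paralog number) in each of the 27 libraries (columns, by group and line), as log2(CPM + 0.5). Hoxc4 and Hoxc5 are high or low in the same lines, most Hoxb rows are lit in every tumor group, and 11 rows stay under 1 CPM in all libraries.

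Hoxb4 to Hoxb8, Hoxa6 and Hoxa10 were higher than in the wildtype libraries in all 4 tumor genotypes. In Braf vehicle, 12 of the 27 tested genes were called at an adjusted p under 0.05 (edgeR's quasi-likelihood F test, adjusted over all 16821 genes), and all 12 were higher: 4 of Hoxa, 7 of Hoxb and 1 of Hoxc. Over all genes 46.5% were called in either direction and 23.7% as higher, so the share called was close to that of all genes while the calls were on 1 side. The median log2 change of the 27 was 3.54, against 0.02 over all genes tested. The 4 comparisons with wildtype share its 3 libraries, so they are given side by side.

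Hoxb7, a trunk patterning gene that was called in every tumor genotype, was at 1.09, 1.76 and 1.88 CPM in the wildtype libraries. It stood at 19.7, 29.5 and 50.4 CPM in Braf lines B47275, B48051 and B52482, at 57.4, 42.8 and 35.6 in Arid1a KO, at 38.5, 38.7 and 52.2 in Arid2 KO and at 50.3, 6.79 and 36.8 in Smarcb1 KO lines. No tumor library overlapped with wildtype, and line BS53958 was the lowest of the 12. The log2 change was 4.39 ± 0.73 in Braf (SE, adjusted p = 9.1e-05), 4.84 ± 0.74 in Arid1a KO, 4.77 ± 0.74 in Arid2 KO and 4.31 ± 0.72 in Smarcb1 KO. Hoxb4, known for its part in blood stem cell growth, was at 3.37 to 5.64 CPM in wildtype and at 8.34 to 45.3 CPM in the 12 vehicle lines, again with no overlap. Its log2 changes were 2.49 ± 0.44, 2.82 ± 0.44, 2.84 ± 0.44 and 1.42 ± 0.42 in the same order of genotypes, all of them called. Hoxb6 was at 1.71 to 2.56 CPM in wildtype and at 4.46 to 52.2 in the lines, and was called in all 4 genotypes with log2 changes between 3.54 and 4.08. Hoxb5 and Hoxb8 were called in each genotype too, with log2 changes of 1.99 to 3.0 and of 3.64 to 4.38. Both overlapped with wildtype in the Smarcb1 KO group, where BS53958 held 1.41 CPM of Hoxb5 and 0.146 CPM of Hoxb8. Hoxb3 was called in Braf (1.72 ± 0.53), Arid1a KO (2.38 ± 0.54) and Arid2 KO (2.25 ± 0.54) and had a log2 change of 0.87 ± 0.52 in Smarcb1 KO (adjusted p = 0.159).

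In the Hoxa cluster most calls against wildtype were of genes from Hoxa5 upward. Hoxa6 had 0 counts in all 3 wildtype libraries and reached 2.72, 0 and 16.6 CPM in Braf lines, 7.60 to 12.3 in Arid1a KO, 2.50 to 19.3 in Arid2 KO and 0.388 to 1.77 in Smarcb1 KO lines. Against 3 counts over the wildtype group this was at least 124-fold higher in Braf, 179.7-fold in Arid1a KO, 196-fold in Arid2 KO and 21.2-fold in Smarcb1 KO, although Braf line B48051 was itself at 0. Hoxa10, a gene of the posterior trunk and uterus, was likewise at 0 in wildtype and at least 15.6-fold higher in Braf, 7.29-fold in Arid1a KO, 169-fold in Arid2 KO and 24.5-fold in Smarcb1 KO. Its values were 0.826, 0.179 and 0.128 CPM in Arid1a KO lines, from 16, 4 and 3 counts. In Smarcb1 KO lines they were 0.427, 0.194 and 3.19 CPM, so that mean rested mostly on BS53965. Braf line B48051 had 2 counts of Hoxa10. Hoxa7 rose from 0.0681 ± 0.076 CPM in wildtype to 3.42 ± 3.4 in Braf, 8.80 ± 5.2 in Arid1a KO and 8.02 ± 9.1 in Arid2 KO (SD, n = 3 each), with B48051 (0.0515 CPM) inside the wildtype range. Hoxa5, a lung and foregut patterning gene, was called in Arid1a KO (4.63 ± 1.65) and Arid2 KO (4.38 ± 1.63). Hoxa3 was called in Arid1a KO (2.89 ± 1.17). Hoxa9 was called in Arid2 KO (7.62 ± 2.18), at 7.35, 4.75 and 1.55 CPM against 0.0518, 0 and 0 in wildtype. With 1 count over the wildtype group the size of that change is uncertain. Hoxa9 reached 1 CPM in 6 libraries, mostly of Arid2 KO.

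Outside the Hoxa and Hoxb clusters, Hoxc6 and Hoxd3 were called. In Braf lines Hoxc6 had a log2 change of 6.74 ± 2.33, but its values were 0.968, 0 and 17.5 CPM against 0.0502 to 0.0537 in wildtype, so it rested on B52482. Hoxd3 was the single gene called lower in Arid1a KO: it was at 0.622, 0.401 and 0.699 CPM in wildtype and had 0 counts in the 3 Arid1a KO lines, at least 12.5-fold lower. Within the Hoxb cluster Hoxb13, a gene of the prostate and hindgut, was at 0 in wildtype and at least 8.14-fold higher in Braf and 55.0-fold in Smarcb1 KO. Its values were 1.06, 0.206 and 0 CPM in Braf lines and 3.70, 4.17 and 0.689 in Smarcb1 KO lines. Outside Smarcb1 KO lines, Hoxb13 had more than 5 counts in B47275 alone (23 in vehicle, 36 under CKI). It thus passed the filter through the Smarcb1 KO group, where it was high, so its call there is no support for a difference. Smarcb1 KO lines had 1 gene lower, Hoxa3, at 2.28, 3.41 and 3.60 CPM in wildtype and 0.237, 0.0970 and 0.344 CPM in the lines (log2 change -3.73 ± 1.28).

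Over the whole set, 13 of the 27 tested genes were called in Arid1a KO (12 higher, 1 lower), 12 in Arid2 KO (all higher) and 9 in Smarcb1 KO (8 higher, 1 lower). The corresponding shares of all genes were 53.3% in either direction, 25.3% higher and 27.9% lower for Arid1a KO, 50.1% and 24% higher for Arid2 KO, and 56.5%, 25.9% higher and 30.7% lower for Smarcb1 KO. The share of Hox genes called was thus under that of all genes in each KO. The share called higher was above it in Arid1a KO and Arid2 KO and near it in Smarcb1 KO. Scaling by the RLE method moved the median of all genes by -0.16 to -0.19 in these 4 comparisons, and 49 of the 52 calls of Hox genes in all comparisons held under it with 0 reversed. Leaving out wildtype library WT_72246 left 5 genes in Braf, among them Hoxa6, Hoxb4, Hoxb6 and Hoxb7, and leaving out any wildtype library or line BA45198 left 7 in Arid1a KO. The wildtype libraries also held markers of other tissues: summed CPM was 1341 to 2874 over 4 skeletal muscle genes, 912 to 2764 over 4 adipocyte genes, 2044 to 3764 over 3 C cell genes, 393 to 609 over 5 endothelial genes and 69.4 to 1985 over 3 parathyroid genes. In the 12 vehicle lines these sums were at most 128, 0.292, 26.3, 666 and 0.461 CPM. Over 8 fibroblast genes the sum was 2056 to 4071 CPM in wildtype, 5.46 to 243 in Braf, 1354 to 3720 in Arid1a KO, 21.8 to 67.3 in Arid2 KO and 6.60 to 667 in Smarcb1 KO vehicle lines, and 5, 2, 7 and 6 of the 8 genes were called lower in that order. Fewer cells of a type and less RNA per cell cannot be told apart in such bulk samples, and the part of these tissues in the differences was not tested. Genotype and tissue make-up cannot be told apart in the comparisons with wildtype. If the wildtype libraries came from tissue that was not cultured, growth in culture cannot be told apart from these either.

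**Figure D2:**
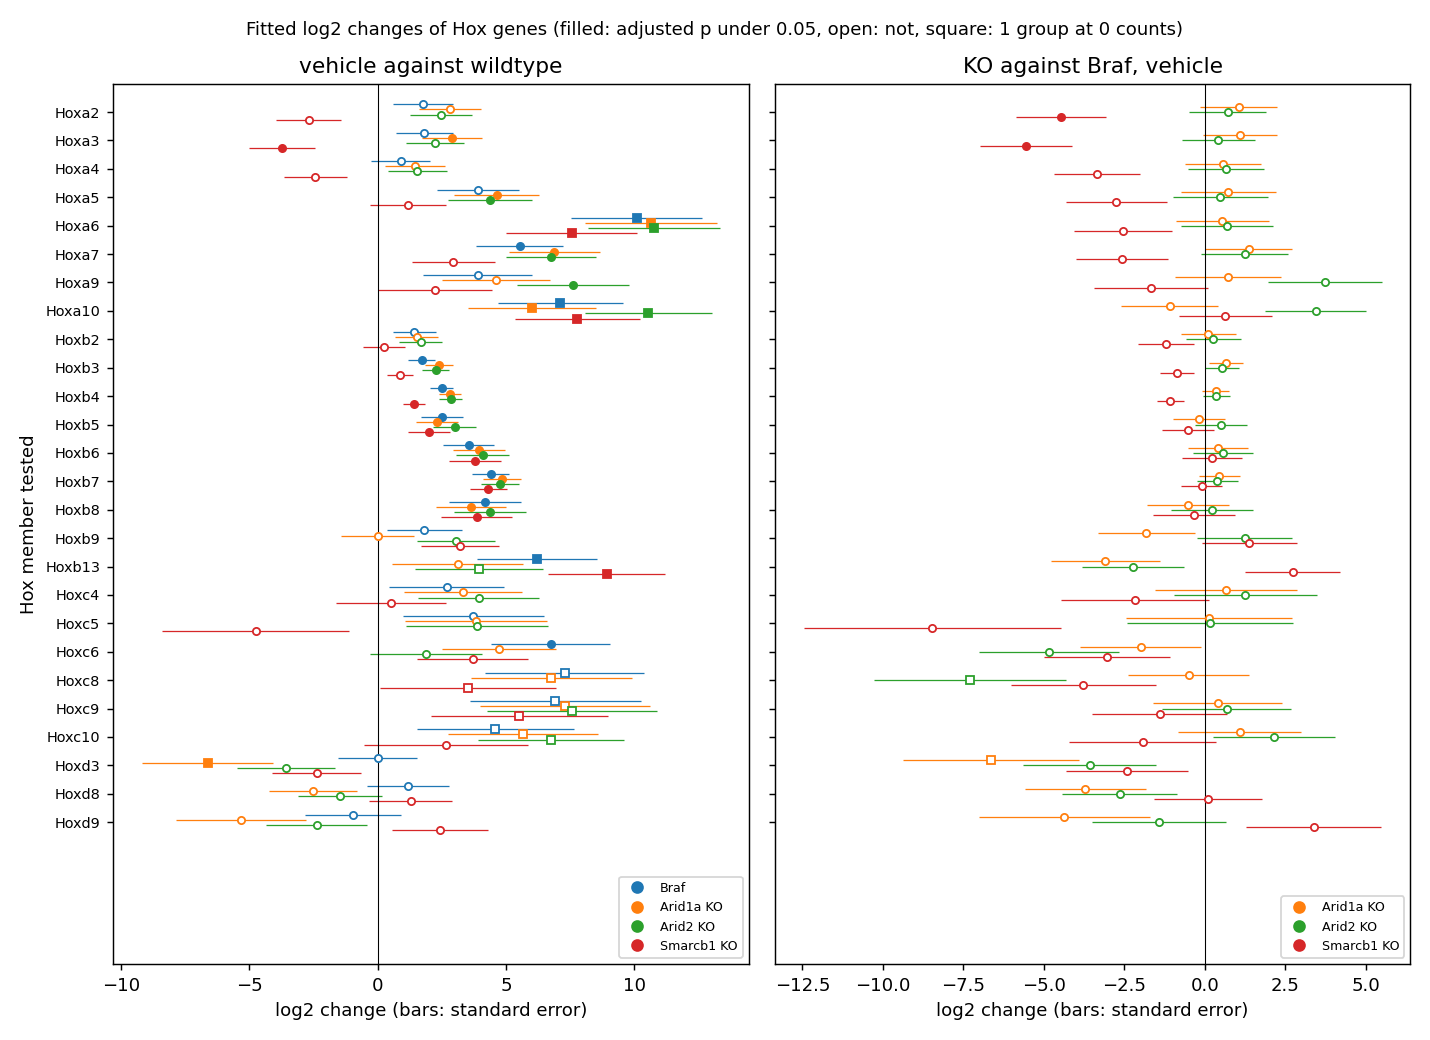
Fitted log2 change of tested Hox genes, with standard errors, for each tumor genotype in vehicle against wildtype (left) and for each KO against Braf in vehicle (right). Filled symbols passed an adjusted p of 0.05, and squares mark genes at 0 counts in 1 of the 2 groups, whose fitted values are no bound. A gene at 0 counts in both groups is not drawn. Hoxb4 to Hoxb8 lie to the right of 0 in all 4 genotypes, and the filled symbols in the right panel are Hoxa2 and Hoxa3 in Smarcb1 KO.

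Loss of a SWI/SNF subunit was compared with Braf alone within the 24 tumor libraries. Hoxa2 and Hoxa3, toward the head end of the Hoxa cluster, were lower in Smarcb1 KO lines in vehicle and under CKI. In each treatment 3 of the 27 tested genes were called, all of them lower. Over all 15634 genes tested in this fit, 18.1% were called in vehicle (11.2% lower) and 23.1% under CKI (13.1% lower), so 3 of 27 lower in each treatment is close to the share of all genes.

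Hoxa3, the gene tied to thyroid development, was at 5.02, 1.55 and 26.3 CPM in Braf vehicle and at 0.237, 0.0970 and 0.344 CPM in Smarcb1 KO lines BS53736, BS53958 and BS53965. The groups did not overlap in vehicle, with B52482 far above its group (log2 change -5.56 ± 1.43, SE, edgeR adjusted p = 0.014). Under CKI Braf line B48051 fell within the Smarcb1 KO range at 0.167 CPM, and the log2 change was -6.75 ± 1.66. Hoxa2, which patterns the neck and the branchial arches, overlapped in both treatments. It was at 0.968, 0.361 and 18.0 CPM in Braf vehicle and 0.237, 0.146 and 0.474 CPM in Smarcb1 KO vehicle, and its log2 change was -4.47 ± 1.41 in vehicle and -5.48 ± 1.64 under CKI.

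Neighbouring genes pointed the same way without passing. Hoxa4 was at 2.07, 1.19 and 9.23 CPM in Braf vehicle and 0.522, 0.0485 and 0.646 in Smarcb1 KO vehicle, groups that did not overlap, with a log2 change of -3.35 ± 1.32 (edgeR adjusted p = 0.084). Hoxa5, Hoxa6 and Hoxa7 had log2 changes of -2.75 ± 1.58, -2.55 ± 1.53 and -2.58 ± 1.43. Hoxb13 had one of 2.72 ± 1.47 (edgeR adjusted p = 0.20), and Hoxb6 and Hoxb7 had values of 0.22 ± 0.93 and -0.10 ± 0.64. Lower values were not confined to Hoxa. In vehicle 8 of 9 tested Hoxa and 6 of 6 Hoxc genes had a negative log2 change (medians -2.58 and -2.60). So did 6 of 9 Hoxb (median -0.34) and 1 of 3 Hoxd genes (0.09). Under CKI the medians were -3.57 for Hoxa, -3.82 for Hoxc, 0.41 for Hoxb and 0.71 for Hoxd. No Hoxc gene was called by edgeR in either treatment, and Hoxc in Braf vehicle rested on B52482 (summed 83.0 CPM, against 1.94 and 0.155). RefSeq places the span of Hoxa3 over Hoxa4, Hoxa5 and Hoxa6, and the sources used here do not give the strand setting of the counting, so the reads of the shared part cannot be assigned with certainty. When the fit held just the 2 compared groups, 0 genes were called in vehicle and 0 under CKI, while DESeq2 called 5 and 7, all lower. DESeq2 called 22.7% of all genes in vehicle (14.5% lower) and 27.8% under CKI (15.7% lower). Leaving out BS53958 left 1 call in vehicle, which was neither Hoxa2 nor Hoxa3, and leaving out B48051 gave 5. Under CKI, 1 call remained without B52482 or without BS53736 (Hoxa3) and 6 without B48051. Without BS53958 and BS53965 together each Smarcb1 KO group held 1 library, BS53736, which was assumed to vary like the other groups. Neither Hoxa2 nor Hoxa3 was called in that fit, which says little about them. Marker levels differed between the same groups: 2 of 8 fibroblast genes and 1 of 8 epithelial genes were lower in Smarcb1 KO vehicle and 2 of 5 endothelial genes higher. Fibroblast sums were 5.46 to 243 CPM in Braf and 6.60 to 667 in Smarcb1 KO vehicle lines, epithelial sums 1350 to 6656 and 0.387 to 238 CPM, and endothelial sums 1.24 to 3.20 and 0.243 to 666 CPM. Under CKI 3 of 8 fibroblast, 1 of 8 epithelial, 2 of 6 tested thyroid follicular and 1 of 2 tested C cell genes were lower in Smarcb1 KO. The sums there were 21.9 to 2135 CPM in Braf and 15.0 to 119 in Smarcb1 KO for fibroblast genes, 215 to 8674 and 1.49 to 224 for epithelial genes, 276 to 706 and 38.9 to 522 for thyroid follicular genes, and 4.13 to 23.4 and 0.494 to 1.49 for C cell genes. The part of these cell types in the result was not tested.

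Loss of Arid1a or Arid2 gave 0 called Hox genes in either treatment with edgeR and with DESeq2. At an unadjusted p under 0.05 edgeR had 1 of 27 in vehicle and 2 under CKI for Arid1a KO, and 4 and 3 for Arid2 KO. At that unadjusted threshold the shares of all genes were 19.5% and 14.6% for Arid1a KO and 12.4% and 10.5% for Arid2 KO, so the Hox counts were near or under the background. After adjustment 3.63% and 0.736% of all genes were called for Arid1a KO and 0.0512% and 0.064% for Arid2 KO by edgeR, and 9.31%, 6.01%, 3.46% and 2.71% in the same order by DESeq2. In Arid2 KO vehicle lines AB51189, AB52980 and AB55694, Hoxa10 was at 15.1, 3.79 and 7.43 CPM, above the 1.34, 0.103 and 0.980 CPM of the Braf lines, and its log2 change of 3.44 ± 1.56 had an edgeR adjusted p of 0.38. Hoxa9 was at 7.35, 4.75 and 1.55 CPM in the same lines against 0.0461, 0 and 0.980 CPM in Braf, and its log2 change of 3.73 ± 1.76 had an adjusted p of 0.40. The Braf group was itself wide, with B52482 apart from B47275 and B48051. Without B52482, Hoxa2 was called higher in both KO genotypes in both treatments, and Hoxb3 and Hoxb6 were called higher in Arid1a KO under CKI, so the counts were 1 and 3 for Arid1a KO and 1 and 1 for Arid2 KO.

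**Figure D3:**
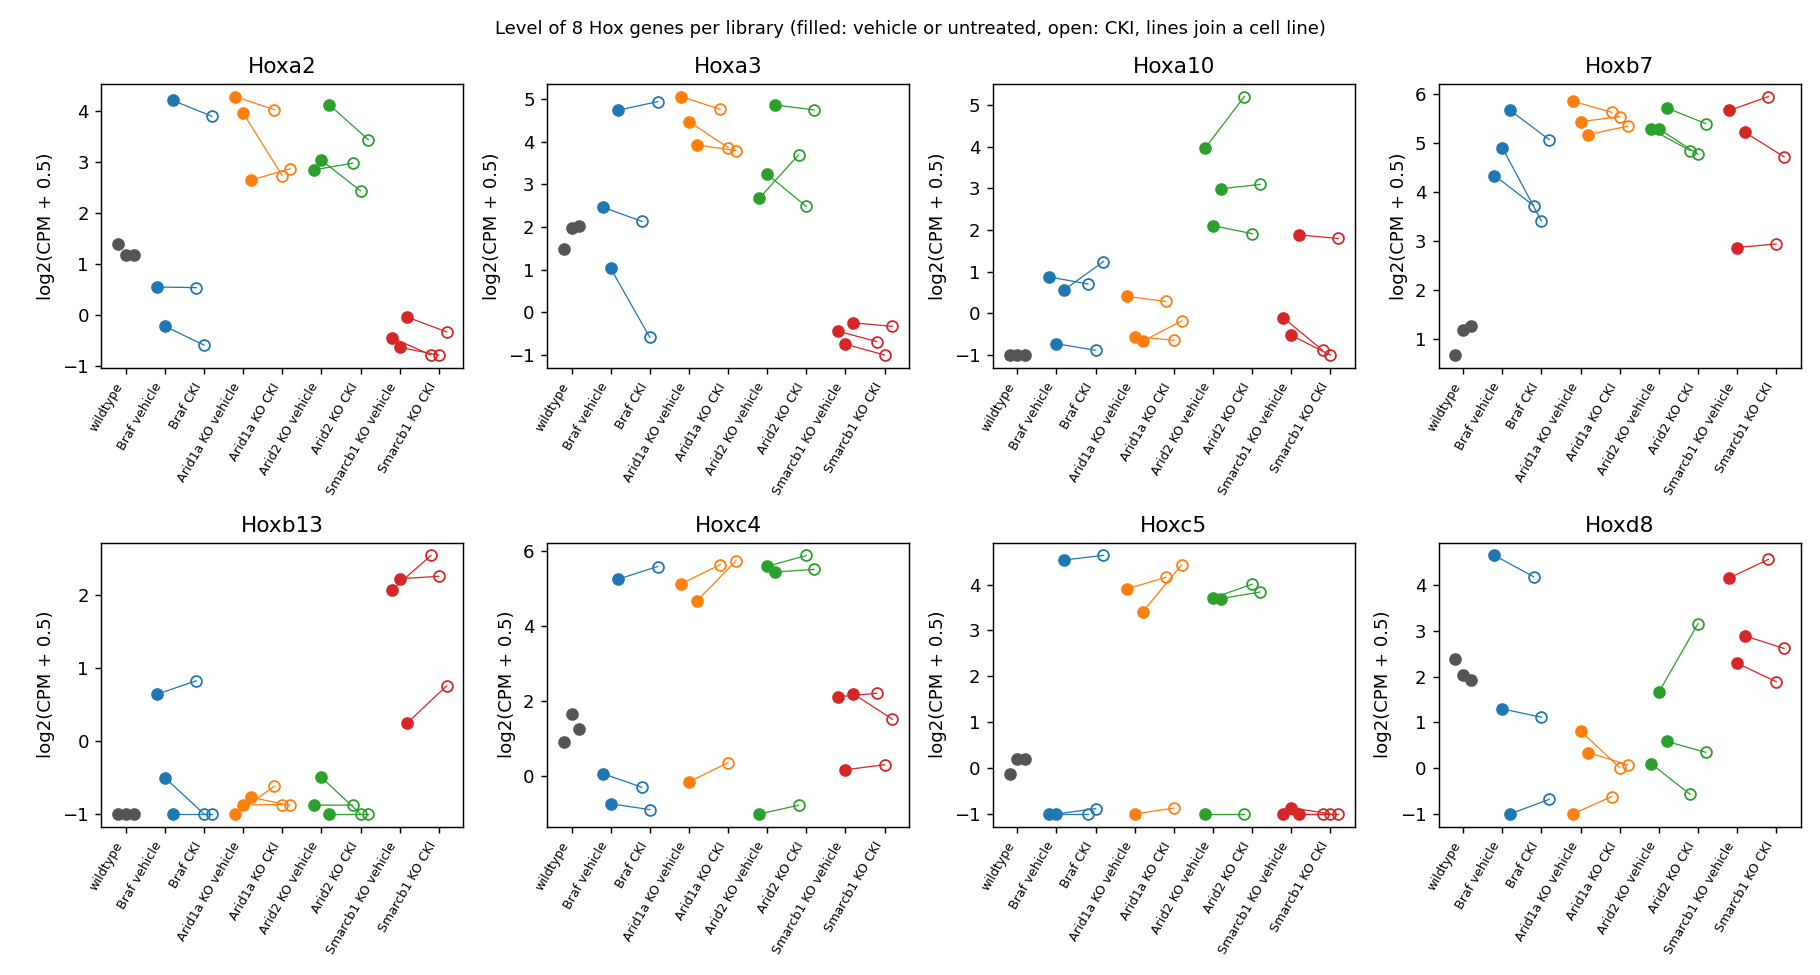
Level of 8 Hox genes as log2(CPM + 0.5) in every library, by group, with filled points for vehicle or untreated libraries, open points for CKI and a line joining the 2 libraries of a cell line. All 6 Smarcb1 KO libraries lie under 0.5 CPM for Hoxa2 and Hoxa3, and Hoxc4 and Hoxc5 split the Braf, Arid1a KO and Arid2 KO groups into high and low lines.

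The level of the Hoxc cluster differed widely between lines of one genotype. Summed over the Hoxc cluster, vehicle libraries held 1.94, 0.155 and 83.0 CPM in Braf lines B47275, B48051 and B52482, 53.2, 0.538 and 40.8 in Arid1a KO lines BA45198, BA47473 and BA49112, and 0.0881, 65.2 and 56.8 in Arid2 KO lines AB51189, AB52980 and AB55694. Smarcb1 KO lines held 5.36, 1.75 and 5.04 CPM and the wildtype libraries 1.86, 3.36 and 2.58. Each of the first 3 genotypes thus had lines with a high and lines with a low Hoxc sum. Hoxc4, at the head end of the cluster, followed that split: it was at 37.7, 34.5, 24.9, 47.8 and 43.0 CPM in B52482, BA45198, BA49112, AB52980 and AB55694 and at 0.553, 0.103, 0.404 and 0 in B47275, B48051, BA47473 and AB51189. Hoxc5 followed the same lines, at 10.1 to 22.8 CPM in the high ones and 0 in all 4 low ones, and was at 0 to 0.0485 CPM in Smarcb1 KO vehicle lines. Further along the cluster the high lines differed: Hoxc6 was at 17.5 CPM in B52482, 1.60 and 2.82 in the Arid1a KO lines and 0.125 and 0.410 in the Arid2 KO lines, and Hoxc10 was highest in AB52980 at 1.58 CPM.

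The Hoxd cluster was low in most tumor lines: its sum was under the lowest wildtype value of 4.89 CPM in 9 of 12 vehicle lines. Hoxd8 was at 24.7, 1.96 and 0 CPM in Braf vehicle, at 0, 1.26 and 0.768 in Arid1a KO, at 0.572, 2.67 and 1.0 in Arid2 KO, and at 17.4, 4.41 and 6.93 in Smarcb1 KO lines, against 4.77, 3.61 and 3.33 in wildtype. Lines B47275 and BS53736 were the high ones, and B52482 and BA45198 had no count in vehicle and 3 and 4 counts under CKI. Hoxd9 was at 11.6 CPM in BS53736 and at or under 1.55 CPM in the other 11 lines, with 1.19, 0.552 and 0.752 CPM in wildtype. Across the 12 vehicle lines the median Pearson correlation of log2(CPM + 0.5) was 0.64 over the 36 pairs of Hoxa genes, 0.58 over 36 Hoxb pairs, 0.59 over 15 Hoxc pairs and 0.70 over 3 Hoxd pairs, and it was -0.45 over the 27 pairs of a Hoxa with a Hoxd gene, -0.27 over 27 pairs of a Hoxb with a Hoxd gene and -0.29 over 18 pairs of a Hoxc with a Hoxd gene. Pairs between the other clusters had positive medians. They were 0.47 over 81 Hoxa with Hoxb pairs, 0.42 over 54 Hoxa with Hoxc pairs and 0.29 over 54 Hoxb with Hoxc pairs. Single pairs spread widely around these medians, from -0.77 to 0.97 among the Hoxb pairs. Lines B48051, BA47473 and AB51189 were low in both Hoxc and Hoxd, with Hoxd sums of 2.32, 1.26 and 0.572 CPM. These values describe 12 lines that share their genotypes by threes, and reads of neighbours whose spans overlap cannot be assigned with certainty.

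Of the genes with higher numbers, Hoxb9 was high in lines of 3 genotypes and Hoxa11 in 1 line. In vehicle Hoxb9 was at 119 CPM in AB51189, 119.8 in BS53965, 68.4 in BS53736, 46.3 in B48051, 38.1 in AB55694 and 22.4 in B52482, and at 0.340 to 11.4 CPM in the other 6 lines. Wildtype held 3.68, 12 and 4.62 CPM, within the range of the lines. Hoxa11 was seen in AB51189 alone at more than 3 counts, with 119 counts in vehicle (5.24 CPM) and 66 under CKI (2.85 CPM). Hoxb8, which lies next to Hoxb9, was at 1.57, 8.55 and 21.0 CPM in Braf, 9.76, 7.18 and 4.57 in Arid1a KO, 3.39, 11.1 and 21.4 in Arid2 KO and 17.7, 0.146 and 7.02 in Smarcb1 KO vehicle lines. Line BS53958 was again the lowest.

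In 11 of 12 lines the vehicle library was most like the CKI library of its own line. Over the 39 genes, it correlated with that library at r = 0.951 to 0.993, and with those of other lines at medians of 0.575 to 0.809. The exception was BA49112, whose vehicle library was at 0.956 with its own CKI library and at 0.961 with that of B52482. The best match among other lines came near in some cases, at 0.954 for B52482 and 0.942 for BA45198, against 0.993 and 0.974 with their own. These correlations run across genes, which are not independent.

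**Figure D4:**
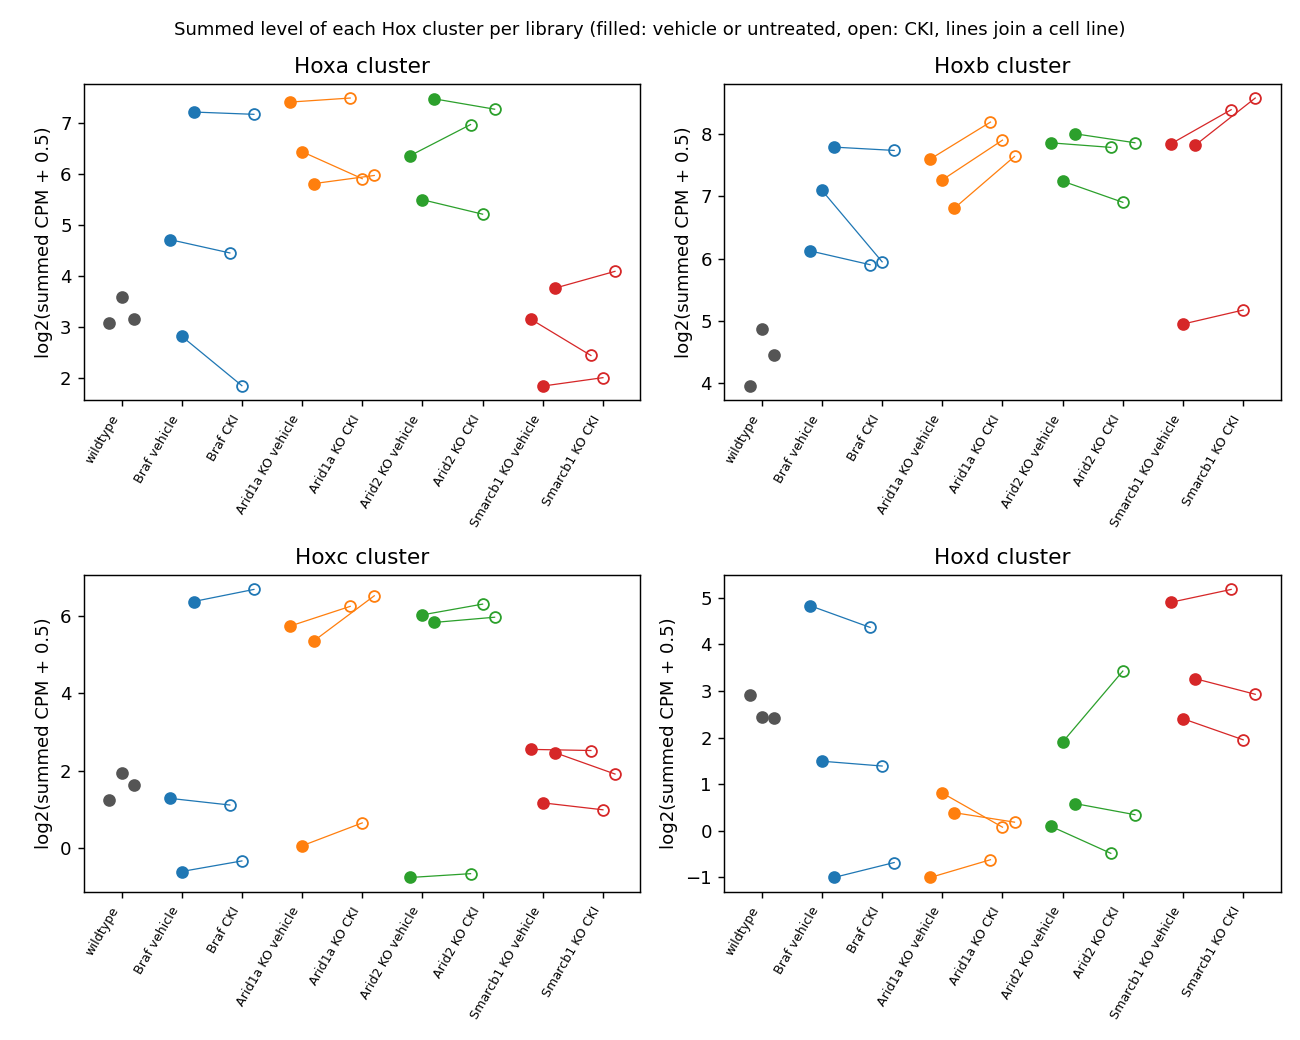
Summed level of each Hox cluster per library as log2(summed CPM + 0.5), with filled points for vehicle or untreated libraries, open points for CKI and a line joining the 2 libraries of a cell line. The Hoxc panel splits Braf, Arid1a KO and Arid2 KO lines into high and low, and B52482 has the highest Hoxa sum of the Braf lines (149 CPM in vehicle) and no Hoxd count in vehicle.

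CKI blocks the kinase cascade below Braf, and its effect was compared with vehicle in each genotype. With groups fitted as means, 0 of 27 Hox genes were called in Braf, Arid1a KO, Arid2 KO or Smarcb1 KO by edgeR, where 0.0%, 13.9%, 0.141% and 0.032% of all genes were called. At an unadjusted p under 0.05 edgeR had 1 Hox gene in Arid1a KO and 0 in the others, against 31.0% of all genes in Arid1a KO, 11.2% in Braf, 13.6% in Arid2 KO and 8.53% in Smarcb1 KO. DESeq2 called 1 in Arid1a KO (higher) and 1 in Smarcb1 KO (Hoxc5, lower), and of all genes 20.8% and 1.76%, with 2.19% in Braf and 3.79% in Arid2 KO. The Hoxc5 call rested on 1 count in all 6 Smarcb1 KO libraries, in BS53958 vehicle. Vehicle and CKI libraries come from the same lines. With the cell line as a block, 5 genes were called higher in Arid1a KO (32.3% of all genes called) and 1 lower in Braf (2.48%), and 0 in Arid2 KO (6.27%) and in Smarcb1 KO (1.06%). The 5 of 27 in Arid1a KO is under the share of all genes.

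Among the genes that rose in the blocked fit of Arid1a KO were Hoxb5, Hoxb6, Hoxb8 and Hoxc8. Hoxb8 in Arid1a KO went from 9.76, 7.18 and 4.57 CPM to 31.4, 25.5 and 23.2 (1.97 ± 0.44, adjusted p = 0.0078 with the block, edgeR). Hoxb6 went from 45.5, 33.9 and 21.8 to 101, 86.1 and 66.3 CPM (1.38 ± 0.36, 0.015) and Hoxb5 from 10.6, 8.88 and 6.36 to 39.7, 20.2 and 16.6 (1.5 ± 0.34, 0.0086). For these 3 genes the CKI libraries lay above all vehicle libraries. Hoxc8 (2.93 ± 0.60, edgeR adjusted p = 0.0097 with the block) was at 0.619, 0 and 1.28 CPM in vehicle and 4.16, 0.0464 and 10.8 under CKI, with BA47473 near 0 in both. Hoxb7, which lies between Hoxb6 and Hoxb8, had a log2 change of 0.03 ± 0.20 in the same fit, and Hoxb4, on the other side of Hoxb5, one of 0.02 ± 0.17 (edgeR adjusted p = 0.92 and 0.95).

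In Braf lines Hoxb7 was the gene that passed with the block, and it fell from 19.7, 29.5 and 50.4 CPM to 12.7, 10.1 and 33.1 (-0.91 ± 0.21, edgeR adjusted p = 0.047). The 2 groups overlapped, and each line was lower under CKI. Hoxb7 was also lower under CKI in each Arid2 KO line, with a log2 change of -0.43 ± 0.20 in the blocked fit (edgeR adjusted p = 0.21). The test of the difference between responses was separate: the response of each KO minus that of Braf gave 0 called Hox genes by edgeR, with 0 at an unadjusted p under 0.05, and 0 by DESeq2. Over all genes edgeR gave 0.0% for each KO, with 5.12%, 0.793% and 4.22% at an unadjusted p under 0.05 for Arid1a KO, Arid2 KO and Smarcb1 KO, and DESeq2 gave 0.173%, 0.0271% and 0.262%. These response tests left out the pairing by line. With the cell line as a block they also gave 0 called Hox genes, where edgeR called 0.147%, 0.0% and 0.032% of all genes in the same order. A rise called in Arid1a KO and not in Braf is therefore not shown to differ between them. In Arid1a KO the marker genes Col1a1, Tg, Tshr and Ret were also called higher under CKI, and the summed fibroblast markers went from 1354 to 3720 CPM in vehicle to 2137 to 7049 CPM, while the epithelial sum went from 316 to 329 CPM to 8.13 to 17.1 CPM. The part of these in the Hox values was not tested.

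**Figure D5:**
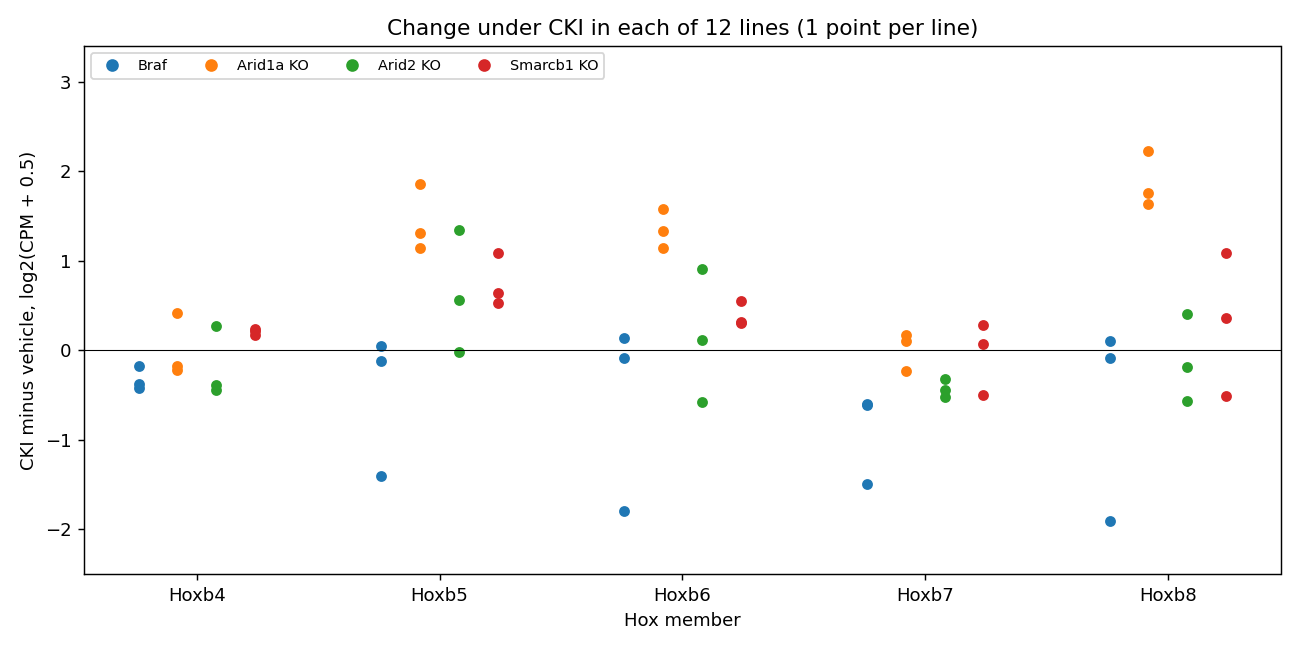
Difference between CKI and vehicle in log2(CPM + 0.5) for 5 Hox genes, with 1 point for each of the 12 lines, coloured by genotype. The 3 Arid1a KO lines lie above all other lines for Hoxb6 and Hoxb8. Hoxb7 is below 0 in 8 of the 12 lines, among them all Braf and all Arid2 KO lines.

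Partners and regulators of the clusters were read from 4 lists. All 9 cofactors were found and tested. Pbx2, a DNA binding partner of Hox proteins, was higher in Smarcb1 KO than in Braf, at 48.7 ± 4.5 against 29.4 ± 4.0 CPM in vehicle (SD, n = 3 each, log2 change 0.72 ± 0.15, edgeR adjusted p = 0.0043), and by 0.51 ± 0.15 on the log2 scale under CKI. In Arid1a KO vehicle 2 of 9 were lower than in Braf, Meis3 (-2.27 ± 0.52) and Pbx4 (-2.83 ± 0.77). Over all genes 3.63% were called in that comparison. For Smarcb1 KO against Braf the shares were 18.1% in vehicle and 23.1% under CKI. Against wildtype, 3 of 9 were higher and 2 lower in Braf, among them Pbx2 (-0.78 ± 0.15) and Pknox2 (-5.62 ± 1.73). These 5 of 9 stand beside 46.5% of all genes.

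Of 19 upstream regulators, 14 were found and 12 tested. In Braf vehicle against wildtype 6 were higher and 1 lower: the Polycomb genes Ezh2 (1.77 ± 0.38), Suz12 (0.88 ± 0.16) and Bmi1 (1.68 ± 0.17) rose, and Ring1 fell (-1.0 ± 0.27). The counts were 6 and 0 in Arid1a KO, 7 and 1 in Arid2 KO and 7 and 1 in Smarcb1 KO. Over all genes 46.5%, 53.3%, 50.1% and 56.5% were called in these comparisons and 23.7%, 25.3%, 24% and 25.9% were higher, so the number of regulators called was near the background while most calls were higher. Mll1, the histone methyltransferase that keeps Hox genes active, was the 1 regulator that differed from Braf in Smarcb1 KO vehicle, at 425 ± 125 against 149 ± 42.8 CPM (SD, n = 3 each, log2 change 1.51 ± 0.25, edgeR adjusted p = 0.00096). Over all genes 18.1% were called in that comparison. In Arid1a KO lines CKI went with higher Kdm6b (1.22 ± 0.39) and Mll2 (0.72 ± 0.16) and lower Suz12 (-0.91 ± 0.17), where 13.9% of all genes were called.

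Genes flanking the clusters were tested as well. Of 13 flanking genes 10 were found and 7 tested. In Smarcb1 KO vehicle 2 were lower than in Braf: Skap2, beside the Hoxa cluster, at 29.9 ± 7.8 against 88.0 ± 17 CPM (-1.57 ± 0.47), and Skap1, beside the Hoxb cluster, at 0.181 ± 0.16 against 2.47 ± 0.54 CPM (-3.73 ± 0.97). Under CKI both were lower and Lnp, near the Hoxd cluster, was higher (0.90 ± 0.28). Over all genes 18.1% were called in vehicle (11.2% lower) and 23.1% under CKI (13.1% lower). No Hoxb gene was called between these groups in either treatment. Against wildtype 3 were higher and 1 lower in Braf, where 46.5% of all genes were called.

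Of 17 non-coding RNAs of the clusters, 8 had a row and 2 were tested. Hoxb3os, which may share reads with Hoxb3 where strand is not kept, was higher than wildtype in Arid1a KO (1.49 ± 0.41) and Arid2 KO (1.07 ± 0.40). Mir196a-1 lies in the Hoxb cluster beside Hoxb9 and gives rise to a microRNA known to target Hoxb8. Its mature sequence, from RefSeq on GRCm38.p6 at chr11:96265187-96265208 on the plus strand, is printed with the seed (bases 2 to 8) in capitals.
mmu-miR-196a-5p: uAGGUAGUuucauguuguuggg
The row counts RNA of the hairpin locus and not the mature microRNA. It was at 0.913 to 1.5 CPM in wildtype, at 0 to 0.228 CPM in the vehicle lines of Braf, Arid1a KO and Arid2 KO, and at 2.04, 0 and 3.23 CPM in Smarcb1 KO lines BS53736, BS53958 and BS53965. It was at least 24.6-fold lower than wildtype in Arid1a KO vehicle, where its group had 0 counts.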

How the data were processed

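RNA was sequenced from 27 mouse libraries. The authors deposited 1 table of unnormalized read counts, with a row per gene symbol. STAR 2.4, HTSeq 0.6.1, DESeq2 and the genome build mm9 are named, without roles, in the submitters' processing notes. The sources used here do not give the annotation or strand setting. Counts were tested in R 4.3.3 with edgeR 4.0.16: filterByExpr by group, TMM scaling, 1 mean per group, quasi-likelihood F test, Benjamini-Hochberg over all genes, called at 0.05. Comparisons with wildtype used all 27 libraries (16821 genes) and the others the 24 tumor libraries (15634 genes). The 17 comparisons were each tumor genotype against wildtype, each KO against Braf in each treatment, CKI against vehicle, and KO minus Braf responses. Each standard error is the absolute log2 change divided by the square root of F, an approximation. Alternatives were RLE size factors, DESeq2 1.42.0, no filter, at least 1 CPM in at least 6 libraries, other sets of libraries in the fit, each line left out, BS53958 and BS53965 left out together, and the cell line as a block. Libraries were paired by line: after removal of group means, vehicle and CKI libraries correlated at 0.259 to 0.773 in all 12 lines. The scripts were tested on simulated data.

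The text names every called Hox gene of a comparison (the 12 with the smallest adjusted p where more were called), the 2 tested genes per cluster with the widest range of group means, and genes at 0 throughout. Other Hox genes were named after their values were seen. The members, lists and rules were chosen with earlier results of these data known. Lists also covered 8 epithelial, 8 fibroblast, 8 thyroid follicular, 5 endothelial, 5 leukocyte, 4 skeletal muscle, 4 adipocyte, 3 parathyroid and 3 C cell markers; leukocyte sums were 72.7 to 114 CPM in wildtype and 1.77 to 18.5 CPM in tumor lines. The floor of up to 3 counts for a group at 0 covers counting error only, while SDs and standard errors also hold the spread between lines. RefSeq tables of GRCm38.p6 gave names, overlaps and sequences, and all 39 symbols matched. Values of 1 Hox gene and 1 cofactor are not reported here; they remain in counts and sums over the set.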

Additional observations from a re-analysis of the deposited data

Results flagged for a closer look

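Hoxb4 was flagged because its change under CKI differed between Smarcb1 KO and Braf lines. CKI minus vehicle, on the log2(CPM + 0.5) scale, lay between 0.169 and 0.243 in the 3 Smarcb1 KO lines and between -0.421 and -0.176 in the 3 Braf lines, a difference of means of 0.534. All lines of each genotype moved to 1 side, but the gene was picked for such a difference, so the split is no support for one. The shifts are small, and the CKI libraries of BS53958 and BS53965 held 121 and 38 counts of Hoxb4. The test of the difference between the responses by edgeR, without the cell line as a block, had an adjusted p of 1.0, so the difference did not pass. With the block no Hox gene was called for this difference either.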

How the results depend on the processing

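Of 52 calls of Hox genes, 27 held under every alternative run and 0 were reversed under any. When the fit held just the 2 compared groups, Smarcb1 KO against Braf had 0 calls in vehicle and 0 under CKI, and CKI in Arid1a KO had 4. DESeq2 gave 5 and 7 for Smarcb1 KO against Braf, and 1 for CKI in Arid1a KO and 1 in Smarcb1 KO. For CKI in Arid1a KO, a filter of 1 CPM in 6 libraries gave 1 and all 27 libraries in the fit gave 1. With the cell line as a replicate block, by pairing, there were 5 calls for CKI in Arid1a KO and 1 in Braf, and the block changed no other count. Without BS53958 and BS53965, which leaves 1 Smarcb1 KO library in each treatment, Smarcb1 KO against Braf had 1 call in vehicle and 1 under CKI. Leaving out 1 line or wildtype library gave 5 to 15 calls against wildtype in Braf, 7 to 10 in Arid1a KO, 10 to 14 in Arid2 KO and 6 to 9 in Smarcb1 KO. Against Braf it gave 0 to 1 (Arid1a KO, vehicle), 0 to 3 (Arid1a KO, CKI), 0 to 1 (Arid2 KO, either treatment), 1 to 5 (Smarcb1 KO, vehicle) and 1 to 6 (Smarcb1 KO, CKI), and 0 to 0 for all comparisons of CKI with vehicle and of responses. The cause of these shifts was not tested. In the CKI library of BS53965, with 2884130 counts, 1 count is 0.297 CPM, which limits low genes there.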

Other observations

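Cdx2, a regulator of posterior Hox genes in the embryo and of the intestinal epithelium, had counts in 2 lines only. It was at 2.37 and 4.13 CPM in Smarcb1 KO lines BS53736 and BS53965 in vehicle and at 1.89 and 3.56 CPM under CKI, and had 0 counts in BS53958 and in all other groups. The same 2 lines had the highest Hoxb9 of their genotype, but lines of other genotypes had high Hoxb9 with 0 Cdx2 counts. Among these were AB51189 at 119 CPM and B48051 at 46.3 CPM of Hoxb9 in vehicle. Hoxa11as, the antisense RNA of Hoxa11, had 42 counts in Arid2 KO vehicle and 19 under CKI, all in AB51189, and 0 in the other groups. Without strand its reads cannot be told apart from those of Hoxa11.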
